A study of Mus musculus with 51 samples.

Results

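The protamine genes Prm1, Prm2 and Prm3 and the transition protein genes Tnp1 and Tnp2 were followed through every chromatin measurement of a mouse germ cell series. They are 5 of 21911 coding genes annotated on mm10, and their measurements were taken over the gene body and over 1000 bp either side of each annotated transcription start. Prm1, Prm2, Prm3 and Tnp2 lie together on chromosome 16, all on the minus strand, and the cluster was chosen by its counts of acetylated histone H3 lysine 9 (H3K9ac) at Prm2, which were higher in the Prdm9 knock-in. That contrast is therefore described without a test for these genes. On mm10 Tnp1 (ENSMUSG00000026182) spans chr1:73015074-73015909, Tnp2 (ENSMUSG00000043050) chr16:10787936-10788660, Prm3 (ENSMUSG00000050058) chr16:10790505-10790914, Prm2 (ENSMUSG00000038015) chr16:10791380-10796134 and Prm1 (ENSMUSG00000022501) chr16:10796326-10805839. Prm1 and Prm2 each have a short and a long transcript, with a start each. The cluster from Tnp2 to Prm1 is 17.9 kb long. Across the 5 count tables, 10 measured regions touched a promoter or a body.

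In late spermatids most histones leave the nucleus. Transition proteins, encoded by Tnp1 and Tnp2, replace them first, and the small arginine-rich protamines encoded by Prm1 and Prm2 then pack the DNA of the sperm head. Prm3 lies between Prm2 and Tnp2 and encodes an acidic protein reported in the cytoplasm of mouse spermatids. All 5 genes are transcribed after meiosis, in round spermatids, and their messages are stored before translation. Meiotic recombination takes place earlier, in spermatocytes: PRDM9 binds DNA through its zinc fingers and methylates nearby histones, including H3 lysine 4 (H3K4me3), SPO11 cuts the DNA there, and DMC1 coats the resulting single strands. HELLS is a chromatin remodeller of the SNF2 family that works with PRDM9 at these hotspots.

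Germ cells were enriched from testes of males 12 to 14 days old, an age at which the tubules hold spermatogonia and spermatocytes but not yet spermatids. B6-Prdm9CAST-KI mice (KI) carry the Prdm9 allele of the CAST strain on a C57BL/6J (B6) background and were set against B6 mice, for chromatin accessibility by ATAC-seq with 2 libraries each, and for H3K9ac with 2 KI libraries, 1 library of mice labelled Spo11/Spo11 and 3 B6 libraries. Hells CKO mice were set against Hells wt mice, for ATAC-seq with 3 and 2 libraries and for H3K4me3 with 3 libraries and 1, and the same H3K4me3 table held 2 Spo11/Spo11 libraries and 1 Spo11/+ library. The labels name neither the Cre that removes Hells nor the Spo11 allele. Hybrid (B6xCAST) F1 males, which carry both genomes, gave 2 ATAC-seq libraries and 1 H3K9ac library with reads counted by allele. DMC1 peaks came from whole testes 6 weeks old, with 1 list each for Hells CKO and Hells het mice, HELLS peaks came from KI testes 12 to 14 days old, and an 11-state chromatin segmentation described B6 germ cells. No label says that libraries of a group came from separate animals, so a p-value measures only the spread between these libraries.

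Reads in regions came to 28.0 to 34.6 M per KI or B6 ATAC library, 6.42 to 11.4 M per Hells ATAC library, 13.2 to 30.2 M for H3K9ac, 13.3 to 42.0 M for H3K4me3 and 3.13 to 5.0 M per allele in the F1. Levels are given as CPM, the count per M reads in regions after these totals were scaled by TMM factors. All 10 germ cell markers examined, among them Ddx4, Dazl and Sycp3, had an H3K4me3 region at their promoter. So did 10 of 10 Sertoli cell markers, 6 of 6 markers of peritubular and vascular cells and 3 of 6 Leydig cell markers. Of the markers of macrophages and blood, 1 of 6 had one. Which cells carried the mark at the Sertoli genes and the other somatic genes was not tested. In such bulk material, fewer cells of a type and less signal per cell cannot be told apart. The tables hold no expression values, so the loss of HELLS was not checked at its own gene product. Library number series in the labels, taken here as preparation batches, were shared by neither the KI and B6 ATAC libraries nor the KI and B6 H3K9ac libraries, so batch and strain cannot be told apart there.

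The B6 H3K9ac libraries differed at hotspots. At the 6216 H3K9ac regions over recombination hotspots (state 7 with a DMC1 peak of Hells het testes), the median level was 1.06 and 1.27 CPM in the KI libraries and 4.28 CPM in the Spo11/Spo11 library, against 1.45, 7.05 and 1.47 CPM in B6 replicates 1, 2 and 3. B6 replicate 2 was the highest of the 6 and the Spo11/Spo11 library lay between it and the other 4. B6 replicates 1 and 3 lay closer to the KI libraries than to B6 replicate 2. Reads in regions were 15.1 M in B6 replicate 2, against 30.2 and 29.2 M in B6 replicates 1 and 3. Which of these libraries were typical of B6 was not tested. Values that rest on B6 replicate 2 at the 5 genes and their neighbours are also given without it.

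The sequences just before each start are shown because the letters known to matter for spermatid transcription, a cyclic AMP response element and a TATA box, can be read there beside the chromatin values. They are 120 bases of RefSeq promoters on GRCm38.p6, 5′ to 3′ on the gene's strand and ending at the base before the RefSeq start, and all 5 genes matched the RefSeq table. Capitals mark TGANNTCA, TATAA or TATATA.
Tnp1 promoter, chr1:73015900-73016019, minus strand: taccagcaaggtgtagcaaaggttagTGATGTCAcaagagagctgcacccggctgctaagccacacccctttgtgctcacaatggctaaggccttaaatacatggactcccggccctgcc
Tnp2 promoter, chr16:10788656-10788775, minus strand: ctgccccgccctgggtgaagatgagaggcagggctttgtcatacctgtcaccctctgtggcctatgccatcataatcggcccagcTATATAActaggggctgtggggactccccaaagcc
Prm3 promoter, chr16:10790915-10791034, minus strand: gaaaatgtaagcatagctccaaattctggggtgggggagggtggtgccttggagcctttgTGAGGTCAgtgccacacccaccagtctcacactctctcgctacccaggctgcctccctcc
Prm2 promoter, chr16:10792106-10792225, minus strand: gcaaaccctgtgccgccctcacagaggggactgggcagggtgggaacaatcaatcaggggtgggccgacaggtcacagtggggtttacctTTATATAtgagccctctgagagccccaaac
Prm1 promoter, chr16:10796824-10796943, minus strand: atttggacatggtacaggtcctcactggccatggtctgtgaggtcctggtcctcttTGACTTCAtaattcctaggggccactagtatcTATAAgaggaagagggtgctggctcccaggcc

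Motifs were searched on both strands over the 250 bases before the start, and TATAA and TATATA can overlap. The loose response element TGANNTCA, a degenerate form of the site that CREM binds, occurred in Tnp1 as TGATGTCA at position -94, in Prm3 as TGAGGTCA at -60 and in Prm1 as TGACTTCA at -64, where positions count back from the start. It is held by 11.9% of 32851 RefSeq promoters, and the full palindrome TGACGTCA, held by 1.55%, was in none of the 5. TATAA lay at -33 in Tnp2, at -32 in Prm1 and on the opposite strand at -30 in Prm2 (22.8% of promoters), and TATATA lay at -35 in Tnp2 and -29 in Prm2 (5.25%). Tnp2, Prm2 and Prm1 thus carried a TATA-like word close to the start, Tnp1 and Prm3 carried the response-element letters without one, and Prm1 carried both. CpG dinucleotides were scarce: Prm1 had 0 in the 250 bases and the other genes 2 each, against a median of 6, and 7.87% and 29.0% of promoters had as few or fewer.

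The chromatin states separated Tnp1 from the cluster. The Tnp1 start (chr1:73015909) lay in state 2, and states 1 and 2 together held most coding starts, with 37.6% in state 1 and 18.3% in state 2. State 2 covered 1000 of the 2001 bases of the Tnp1 promoter and 84.8% of the 836 bp body. The starts of Tnp2 (chr16:10788660), Prm3 (chr16:10790914), the shorter Prm2 transcript (chr16:10792105) and the longer Prm1 transcript (chr16:10805839) lay in state 11, which covers 43.7% of the genome and holds 13.3% of coding starts. The longer Prm2 transcript (chr16:10796134) and the shorter Prm1 transcript (chr16:10796886) started in a single segment of state 8, chr16:10794001-10797800, a state with 4.52% of bases and 2.10% of coding starts.

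Genes that act before or with the protamines mostly had starts in states 1 and 2. Of 22 genes of histone-to-protamine exchange and spermatid chromatin, 20 had a start in state 1 or 2, as had 12 of 13 genes for transcription in spermatids (Crem and its partners) and 13 of 13 genes for storage and translation of protamine messages. Of 16 late spermatid structural genes, such as Odf1, Akap4 and Smcp, 5 had such a start and 9 had starts in state 11 alone. Over all coding genes the share with a start in state 1 or 2 was 71.4%. Of the 5 genes, Tnp1 had a start in state 1 or 2 and the other 4 had none.

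**Figure D1:**
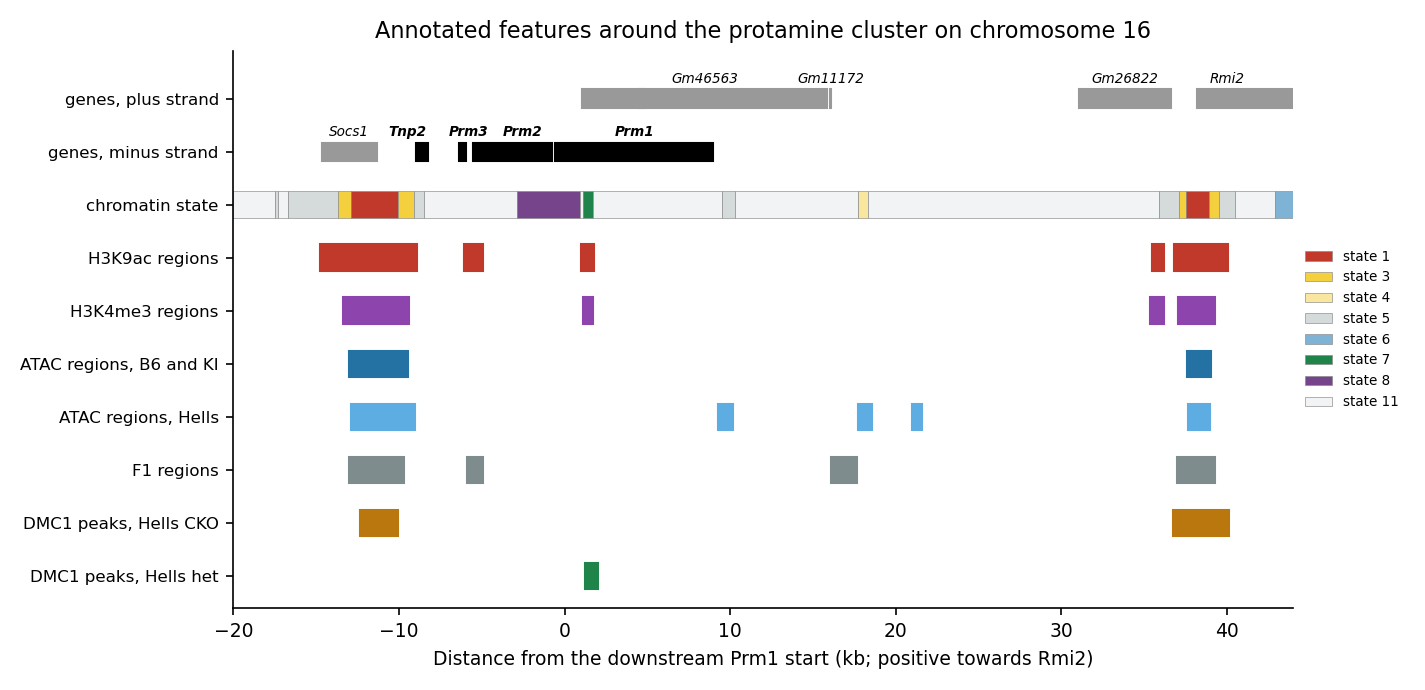
The protamine cluster and its neighbours on mm10 chromosome 16: distance from the start of the shorter Prm1 transcript in kb along the horizontal axis, with genes, chromatin states, peak lists and the measured regions of each table in separate tracks. The cluster itself holds the Prm2-Prm3 regions of the H3K9ac and F1 tables and, inside Prm1, one site seen by H3K4me3, H3K9ac and DMC1; the Socs1 and Rmi2 promoters on either side carry regions in every count table.

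Few ATAC regions lay at the 5 genes. The KI and B6 ATAC table had 0 of its 81887 regions at any of their promoters or bodies, so accessibility between KI and B6 could not be compared at the genes themselves. In the Hells ATAC table, 2 of 95109 regions reached the promoter window of a member, and neither held its start. The first, chr16:10783969-10787876, belongs to the promoter of Socs1, a suppressor of cytokine signalling, and enters the promoter window of Tnp2 only at an edge. The second, chr16:10806131-10807045, lies 292 bp upstream of the longer Prm1 start and inside the antisense gene Gm46563. The F1 table had regions at Tnp1 and at Prm2-Prm3, with 48 and 35 ATAC reads in its libraries 1 and 2 at Tnp1 and 15 and 20 at Prm2-Prm3.

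The Socs1-Tnp2 region had 94.6, 95.2 and 80.5 CPM in Hells CKO cells, against 98.5 and 90.3 CPM in Hells wt cells. The ranges overlapped, and the log2 fold change was -0.07 (SE 0.163, adjusted p = 1.000, edgeR's quasi-likelihood test with Benjamini-Hochberg adjustment over all regions). The region upstream of Prm1 was weaker, at 3.64, 4.54 and 4.22 CPM in Hells CKO cells and 2.11 and 4.14 CPM in Hells wt cells, where Hells wt replicate 1 was the lowest and had 13 reads. Its log2 fold change was 0.35 (SE 0.365, adjusted p = 1.000), and -0.00 without that replicate. Neither region passed the test, in a table where 0.382% of 95033 regions did.

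H3K4me3 at Tnp1 was even across libraries. The region chr1:73015015-73016339 covered the start, with 6.53, 5.52 and 5.72 CPM in Hells CKO cells against 6.23 CPM in the Hells wt library. It had 6.12 and 5.45 CPM in Spo11/Spo11 cells against 5.69 CPM in the Spo11/+ library. All 7 libraries lay within that narrow band, and the groups overlapped in both contrasts. The log2 fold change was -0.07 for Hells CKO over Hells wt (SE 0.278, adjusted p = 0.961, edgeR) and 0.02 for Spo11/Spo11 over Spo11/+ (SE 0.280, adjusted p = 1.000, edgeR). The first of these took the opposite sign, 0.04, under scaling by the median of ratios. Per kb of region, between 28.1% and 32.0% of the 24840 promoter regions had less H3K4me3, by library, so the mark at Tnp1 was present but below the middle of promoters. By likeness of level over the 7 libraries, the closest of 16192 genes were Ttll6, an enzyme that adds glutamates to tubulin, Zdhhc18, a palmitoyltransferase, and Gm6880, with root mean square differences of 0.0632, 0.0760 and 0.0826 in log2(CPM + 0.1).

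No H3K4me3 region lay at a start of Prm1, Prm2, Prm3 or Tnp2. The cluster had a single H3K4me3 region, chr16:10798003-10798598, wholly within an intron of the longer Prm1 transcript. Its middle was 1.41 kb upstream of the shorter Prm1 start and 7.54 kb downstream of the longer one, and it held 0 exonic bases of Prm1. Here the B6 segmentation had a 600 bp segment of state 7 and Hells het testes had a DMC1 peak, chr16:10798090-10798903, as at a recombination hotspot. State 7 covers 0.562% of bases and 0.455% of coding starts and it holds 6.43% of DMC1 peaks of Hells CKO testes, against 67.5% of those of Hells het testes. The middle of the site is shown because it is the stretch that carries the hotspot marks in Prm1, in lower case throughout since no word searched for was found in it.
Middle of the Prm1 intron hotspot, chr16:10798201-10798400, plus strand: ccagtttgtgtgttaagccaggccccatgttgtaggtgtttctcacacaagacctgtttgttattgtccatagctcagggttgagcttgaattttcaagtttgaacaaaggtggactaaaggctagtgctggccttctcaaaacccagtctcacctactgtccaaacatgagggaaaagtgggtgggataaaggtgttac

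H3K4me3 at this Prm1 intron site was lower in Hells CKO cells. The counts were 4, 6 and 4 reads in Hells CKO cells against 17 reads in the Hells wt library, or 0.124, 0.310 and 0.147 CPM against 1.20 CPM. Every Hells CKO library was below the Hells wt library, by a wide gap. The Spo11/Spo11 libraries held 60 and 54 reads (1.76 and 1.25 CPM) and the Spo11/+ library 54 reads (1.80 CPM), all above the Hells wt library. The log2 fold change of Hells CKO over Hells wt was -2.69 (SE 0.673, adjusted p = 0.0220, edgeR's quasi-likelihood test), and it was the 1 member region of 2 that passed, in a table where 11.7% of 78959 regions passed. The call rests on few reads and on a single Hells wt library: by DESeq2 the log2 fold change was -2.59 with an adjusted p of 0.0523, and without Hells CKO replicate 3 it was -2.53 with an adjusted p of 0.0934, where the alternatives ran from 0.00184 to 0.0934. Within the 1 library number series that holds both genotypes, Hells CKO replicate 2 had 6 reads and Hells wt 17, a log2 ratio of -1.96 with no test. The region ends lie 2 bp inside its state 7 segment of the B6 segmentation. Its p-value does not allow for a choice of regions by that state in cells with HELLS.

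Spo11/Spo11 over Spo11/+ gave a log2 fold change of -0.26 at the Prm1 site (SE 0.577, adjusted p = 1.000, edgeR). In that contrast 0 regions passed (0% of 78959), with 159 at an unadjusted p under 0.05 and 5 calls by DESeq2. The SE leaves the difference loosely bounded at this site, and the p does not show that the levels were equal.

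**Figure D2:**
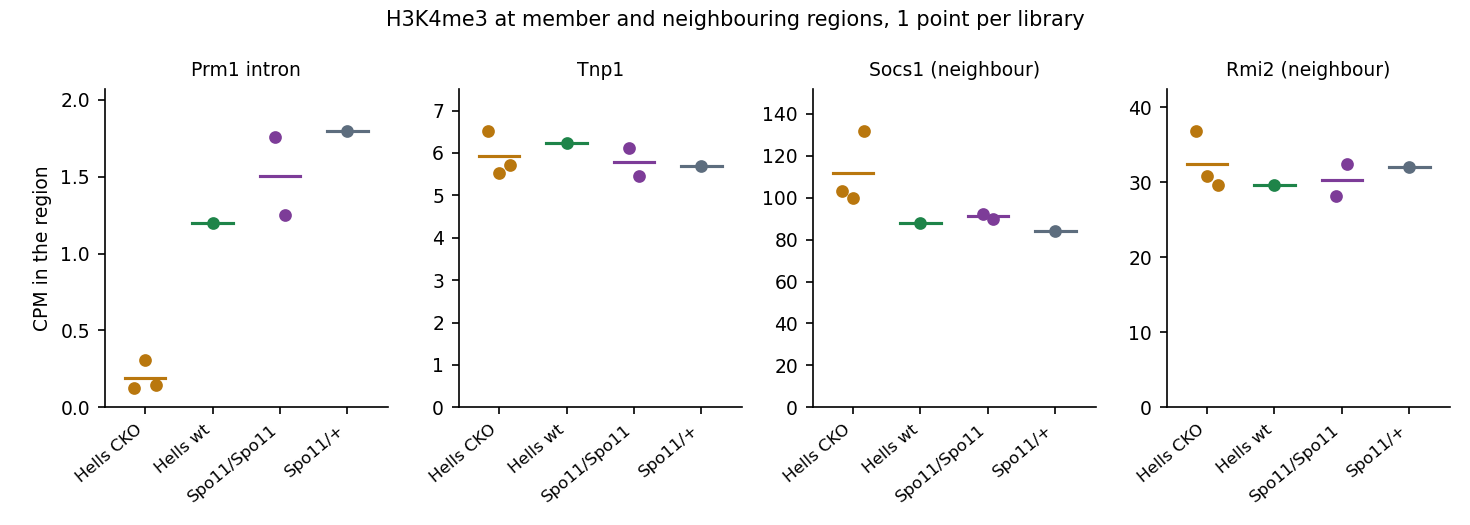
H3K4me3 in CPM in each library at the Prm1 intron site, at the Tnp1 promoter and at the neighbouring Socs1 and Rmi2 promoters, with a point for each library and a line at the mean of each group. Tnp1 stays between 5.45 and 6.53 CPM in all libraries, whereas at the Prm1 site the 3 Hells CKO libraries sit at 0.124 to 0.310 CPM and the others at 1.20 to 1.80 CPM.

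Among recombination hotspots the Prm1 site was ordinary in its change and weak in its level. Of 10304 H3K4me3 regions in state 7 with a DMC1 peak of Hells het testes, 7939 were lower and 0 higher in Hells CKO cells, with a median log2 fold change of -2.39 and quartiles of -2.72 and -2.05. The value at Prm1 was just above the lower quartile, and 26.8% of hotspots had a lower one. In level, 8.37% of hotspots were below it in Hells CKO cells and 15.6% in Hells wt cells. Class medians by library were 0.373, 0.671 and 0.367 CPM in Hells CKO cells, 2.48 CPM in wt cells, 3.60 and 3.43 CPM in Spo11/Spo11 cells and 4.46 CPM in Spo11/+. State 7 is not independent of these regions, since 100% of the 10304 had both ends 2 bp inside the 200 bp grid of the segmentation, against 3.68% of the other 68656 regions. They may have entered the table through that state of B6 cells, so the count of lower regions is a description of the class.

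Marker promoters were read in the same libraries. Summed H3K4me3 over the promoters of 10 Sertoli markers was 677 to 995 CPM in the Hells CKO libraries against 614 CPM in the wt library. Over 10 germ cell markers it was 303 to 382 CPM in the Hells CKO libraries against 298 CPM in the wt library. Leydig markers (3 with a region) summed to 104 to 130 against 93.0 CPM, and peritubular and vascular markers (6) to 76.2 to 91.1 against 73.5 CPM. The marker of macrophages and blood with a region went the other way, at 1.65 to 1.91 against 2.48 CPM. None of these promoters passed the test, and the Sertoli and germ cell medians were 0.51 and 0.16 in log2 against 0.19 for all promoter regions. The part of cell composition in the Prm1 value was not tested.

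**Figure D3:**
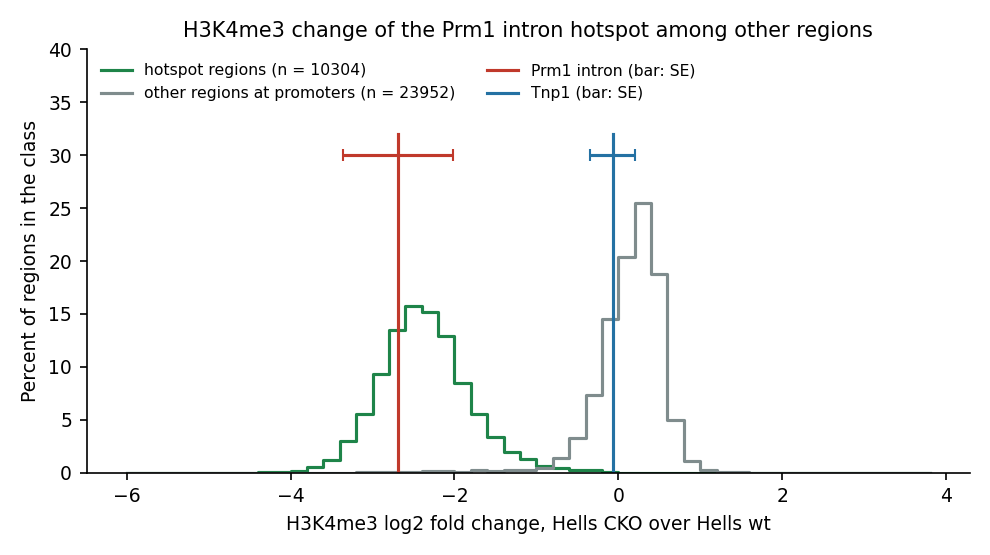
Histogram of the log2 fold change of H3K4me3, Hells CKO over Hells wt, for 10304 hotspot regions and for 23952 other promoter regions, with vertical lines and SE bars at the Prm1 intron site (-2.69) and the Tnp1 promoter (-0.07). The Prm1 site falls among the hotspots and Tnp1 among the promoters.

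DMC1 peaks, which mark repair of meiotic breaks, were read at the same genes. In Hells CKO testes no DMC1 peak touched the body or promoter of any of the 5 genes, whereas in Hells het testes 1 did, the peak in the Prm1 intron. Among coding genes, 43.5% had a Hells CKO peak in the body and 23.8% a Hells het peak. At a promoter the shares were 40.3% and 7.72%. The Hells CKO peaks nearest the cluster covered the Socs1 promoter, chr16:10784523-10786819 and 1.12 kb from Tnp2, and the promoter of Rmi2, chr16:10833635-10836981, whose product belongs to the complex that dissolves recombination intermediates. At Tnp1 the nearest peaks were 302 kb away in the Hells CKO list and 86.1 kb away in the Hells het list. With 1 list a genotype these presences carry no test, and a peak that is not listed may only have been too weak. HELLS peaks of KI testes were far from all 5 genes, the nearest 187 kb from Prm1 and 731 kb from Tnp1. HELLS peaks also covered 0.0970% of the 10304 hotspots of B6, which are defined in mice with another Prdm9 allele, and lay in the bodies of 9.05% of coding genes.

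H3K9ac had regions at all 5 genes, 4 regions in all. The largest difference among them was between Prm3 and Prm2, at chr16:10790807-10791986, in state 11. This 1180 bp region covered 108 bases of Prm3 and 607 of Prm2, of which 502 were exonic, and it ended 119 bp short of the shorter Prm2 start. The 300 bases shown lie between the genes and inside this region; the counts are for the whole region and give no position within it.
Between Prm3 and Prm2, chr16:10791080-10791379, plus strand: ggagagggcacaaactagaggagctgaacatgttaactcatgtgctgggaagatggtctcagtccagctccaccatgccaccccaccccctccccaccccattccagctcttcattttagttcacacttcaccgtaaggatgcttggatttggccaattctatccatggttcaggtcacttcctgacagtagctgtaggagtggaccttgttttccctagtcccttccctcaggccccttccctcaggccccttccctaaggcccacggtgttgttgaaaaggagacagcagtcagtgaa

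The Prm2-Prm3 region had 135 and 113 reads in KI cells and 21 in the Spo11/Spo11 library, against 12, 25 and 23 in B6 cells. Scaled to depth these were 6.25 and 6.84 CPM in KI cells and 1.61 CPM in Spo11/Spo11 cells, against 0.387, 1.57 and 0.750 CPM in B6 cells. Both KI libraries were far above all others, and the Spo11/Spo11 library was at the upper end of B6. Means were 6.54 ± 0.421 CPM in KI cells (SD, n = 2) and 0.904 ± 0.608 CPM in B6 cells (SD, n = 3), and the fitted log2 fold change was 2.91 (SE 0.559), between 2.53 and 3.51 when 1 library was left out. This is the value that chose the cluster, in a contrast where 12.3% of 91909 regions passed, and it is given as a description. Per kb, 2.52% of the 25540 promoter regions were lower than this region in its lowest library and 59.1% in its highest, so its higher KI library lay near the middle of promoters.

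For Spo11/Spo11 over B6 the log2 fold change at the Prm2-Prm3 region was 0.89 (SE 0.734). The B6 libraries used here also served in choosing the cluster, so the value at this region is a description. No member passed in that contrast, nor did any other region (0% of 91909, with 3616 at an unadjusted p under 0.05 and 16 calls by DESeq2). Without B6 replicate 2 the log2 fold change at the Prm2-Prm3 region was 1.49, again as a description. Whether any member passed depended on that library, as the count of calls over the whole table did. The Spo11/Spo11 group has 1 library, assumed to vary like the others.

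Marker promoters were also read in the H3K9ac libraries. Summed H3K9ac over 10 germ cell markers was 391 to 404 CPM in KI cells and 456 CPM in Spo11/Spo11 cells, against 302 to 360 CPM in B6 cells. Over 10 Sertoli markers it was 466 to 631 CPM in KI cells and 574 CPM in Spo11/Spo11 cells, against 509 to 684 CPM in B6 cells. Over the 5 Leydig markers with a region it was 81.8 to 103 CPM in KI cells and 111 CPM in Spo11/Spo11 cells, against 92.9 to 144 CPM in B6 cells. Over 6 peritubular and vascular markers it was 83.1 to 84.9 CPM in KI cells and 88.7 CPM in Spo11/Spo11 cells, against 86.0 to 97.0 CPM in B6 cells. Of 6 markers of macrophages and blood only Csf1r and Ptprc had a region, with a sum of 5.88 to 9.38 CPM in KI cells and 2.06 CPM in Spo11/Spo11 cells, against 2.10 to 4.53 CPM in B6 cells, and Adgre1, Cd68, Lyz2 and Hbb-bs had none. Ptprc was itself past the threshold in KI over B6, in a state 11 region (not past it when any library but B6 replicate 2 was left out), and the part of these cells in the Prm2-Prm3 value was not tested.

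H3K9ac at Tnp1 was low, in the region chr1:73015411-73016097. It had 2.13 and 2.00 CPM in KI cells and 3.06 CPM in the Spo11/Spo11 library, against 1.39, 2.33 and 1.83 CPM in B6 cells. The KI values lay within the B6 range and the Spo11/Spo11 value above it. The log2 fold change was 0.17 for KI over B6 (SE 0.328, a description) and 0.36 without B6 replicate 2. For Spo11/Spo11 over B6 it was 0.73 (SE 0.404, adjusted p = 0.924, edgeR) and 0.93 without B6 replicate 2. Its side of the threshold depended on that library, as the count of calls over the whole table did.

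At Tnp2 the only H3K9ac region was the Socs1 domain, chr16:10782145-10787954, which reached 19 bases into the far end of the Tnp2 body and stopped 706 bp before its start. It had 73.0 and 53.5 CPM in KI cells and 85.5 CPM in Spo11/Spo11 cells, against 62.4, 67.1 and 62.7 CPM in B6 cells. The KI libraries lay on both sides of the B6 range, with a log2 fold change of -0.02 (0.02 without B6 replicate 2), and Spo11/Spo11 over B6 gave 0.42 (SE 0.196, adjusted p = 0.924, edgeR). Tnp2 has no H3K9ac region of its own.

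The Prm1 intron site also carried H3K9ac, in the region chr16:10797894-10798664, which took in the Gm46563 start and 45 exonic bases of that gene. Its counts were 15 and 10 reads in KI cells and 21 in Spo11/Spo11 cells, against 14, 54 and 23 reads in B6 cells, or 0.694 and 0.605 CPM in KI cells and 1.61 CPM in Spo11/Spo11 cells against 0.452, 3.40 and 0.750 CPM in B6 cells. B6 replicate 2 was the highest by far, as at hotspots at large, and the other B6 libraries overlapped the KI ones. The log2 fold change of KI over B6 was -1.19 (SE 1.00, a description) and 0.12 without B6 replicate 2. The median over 6216 hotspots was -1.53, and -0.36 without that library. For Spo11/Spo11 over B6 it was 0.10 (SE 1.20, adjusted p = 0.991, edgeR), and 1.41 with an adjusted p of 0.0906 without that replicate, the lowest among alternatives that reached 1.000. The direction at this site thus rests on 1 library. Per kb, 0.435% of promoter regions were lower than the Prm1 site in its lowest library and 46.4% in its highest, which was that library.

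**Figure D4:**
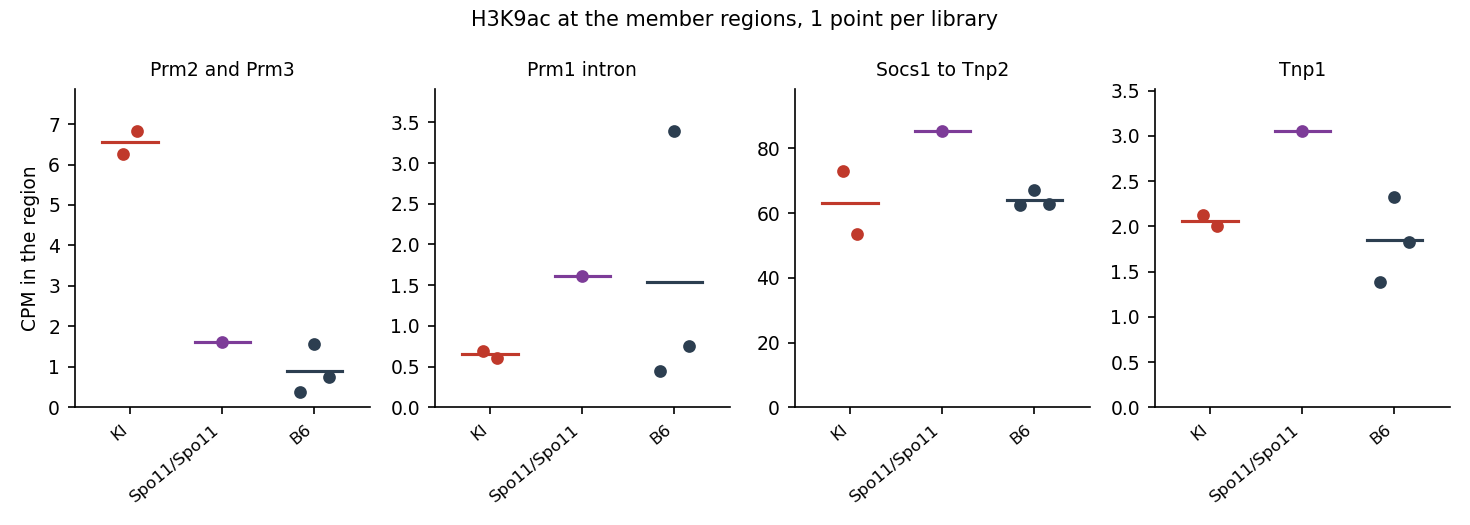
H3K9ac in CPM in each library at the 4 regions that touch the protamine and transition protein genes, with a point for each library and a line at the mean of each group. At the Prm2-Prm3 region the KI libraries (6.25 and 6.84 CPM) lie above every other library, at the Prm1 intron site 1 B6 library (3.40 CPM) lies above the rest, and the Tnp1 and Socs1-Tnp2 regions show no such gap.

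The Prm2-Prm3 region resembled other regions higher in KI in some respects. The 11121 H3K9ac regions called higher in KI cells lay in state 11 in 50.7% of cases, against 4.17% of the other 80788, and touched a promoter in 11.3% of cases, against 30.1%. The Prm2-Prm3 region was in state 11 and at a promoter. A DMC1 peak of Hells het testes, which would mark a hotspot of B6, covered 1.58% of the regions higher in KI and 11.3% of the others, and a HELLS peak of KI testes covered 11.7% and 1.62%. The Prm2-Prm3 region had neither peak. Regions of the KI and B6 ATAC table overlapped 5566 of the 11121 regions higher in KI and 63.1% of the others, and none lay at Prm2-Prm3, whereas F1 regions overlapped 91.1% and 60.4%, and Prm2-Prm3 had one. The number of regions called higher in KI was 26360 without B6 replicate 2 and 0 without either KI library, and the shares were taken with all libraries. They are descriptions, since the KI and B6 contrast defined the class.

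Short words more frequent at site centres than in flanks were looked up in the member regions. Words of 8 bases were counted within 100 bp of the middle of each site and in flanks 1000 bp away, on both strands, and the 10 with the highest ratio were kept for each class. Over 9416 hotspots away from promoters the word with the highest ratio was GATGCTAC, in 4.32% of centres and 0.340% of flanks, and over 9722 sites higher in KI, also away from promoters, the first was ATGTGACC, in 4.71% and 0.725%. The Prm1 intron site held none of either set of 10. The Prm2-Prm3 region held none of the KI words, and held GCAGCAGC of the B6 words in a pair of overlapping copies inside Prm2 (chr16:10791694-10791704). The word was found in 6.58% of B6 hotspot centres and 1.09% of flanks. The middles of the copies lay 301 and 304 bp from the middle of the region, outside the 100 bp that these shares refer to. A missing word says only that these letters are not in the region. In composition the sites differed: the Prm1 intron site had 4 CpG dinucleotides in 596 bp and 49.3% G and C, and the Prm2-Prm3 region 28 in 1180 bp and 58.1%.

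By likeness of H3K9ac level over the 6 libraries, the genes closest to Prm2 and Prm3, which share 1 region, were Apol9b, Adam10 (a membrane metalloprotease) and H2-M2 (a class I histocompatibility gene), with root mean square differences of 0.178, 0.205 and 0.231 in log2(CPM + 0.1), among 16184 genes with a promoter region. For Tnp1 they were Pf4, Spock3 and Vmn2r60, with 0.116, 0.122 and 0.168, and for the Socs1-Tnp2 region Srcap (0.0497), a remodelling ATPase, and Cggbp1 and Zfp654 (0.0678), which share a promoter region.

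In F1 males both parental copies of the Prm2-Prm3 region were seen, at chr16:10790986-10791982. ATAC reads were 11 from the B6 allele and 4 from the CAST allele in library 1, and 10 and 10 in library 2. The B6 share was 73.3% in library 1 (95% exact interval 44.9 to 92.2) and even in library 2 (27.2 to 72.8). H3K9ac reads were 7 from the B6 allele and 8 from the CAST allele, a share of 46.7% (21.3 to 73.4). All 3 intervals include the genome-wide B6 shares of 50.5%, 50.4% and 51.2%. The ATAC log2 ratio of the B6 allele over the CAST allele was 0.61 (SE 0.630, adjusted p = 0.637, edgeR), so at this depth an allele difference was not detectable. Intervals cover counting error only.

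At the Tnp1 promoter, too, no allele difference was detected. ATAC reads were 22 from the B6 allele and 26 from the CAST allele in library 1 (45.8%, 31.4 to 60.8) and 17 and 18 in library 2 (48.6%, 31.4 to 66.0), and H3K9ac reads were 13 and 11 (54.2%, 32.8 to 74.4). The ATAC log2 ratio was -0.17 (SE 0.388, adjusted p = 0.860, edgeR). Neither member region passed, in a comparison where 11.7% of 69255 regions did. Of 8911 tested F1 regions at an H3K9ac region higher in KI, 20.4% were higher on the B6 allele and 3.09% on the CAST allele, with a median log2 ratio of 0.26, against 4.18% and 5.81% with a median of -0.00 over the 60344 other regions. The Prm2-Prm3 value lay above that median but rested on 15 and 20 ATAC reads.

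**Figure D5:**
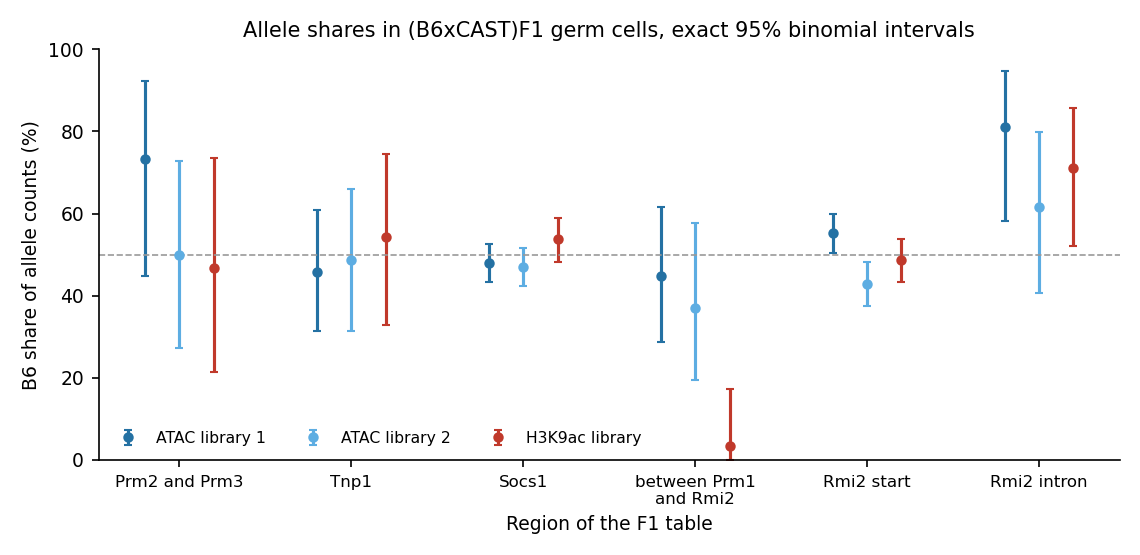
Share of F1 reads from the B6 allele, in percent, at the regions of the cluster, its neighbours and Tnp1, with 95% exact binomial intervals for the ATAC and H3K9ac libraries and a dashed line at an even share. The Prm2-Prm3 and Tnp1 intervals all cross the line, and H3K9ac between Prm1 and Rmi2 (3.33%) lies far below it.

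Around the cluster, within 50 kb on either side, no other region passed with all libraries in a comparison of the KI, Hells or Spo11 groups, and none passed between F1 alleles. The promoters of Socs1 and Rmi2 flank the cluster and were strong in every table. For KI over B6, in a table where 9.41% of 81887 regions passed, the Socs1 ATAC region had 81.8 and 77.4 CPM in KI cells and 108 and 87.0 CPM in B6 cells, a log2 fold change of -0.29 (adjusted p = 0.598, edgeR). The Rmi2 ATAC region had 38.6 and 35.6 CPM in KI cells and 49.8 and 41.1 CPM in B6 cells, also -0.29 (adjusted p = 0.514, edgeR). In both, the KI libraries were below the B6 ones without overlap between 2 libraries each. Over all 22620 promoter regions the median in this contrast was -0.13. With single libraries left out, the values ran from -0.46 to -0.12 at Socs1 and from -0.45 to -0.14 at Rmi2. Such fits leave 1 library in a group, and the side of the threshold depended on which library was left out.

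The other regions of the window were intergenic or lay within Rmi2, Clec16a or Gm26822. Their ATAC log2 fold changes ran from 0.12 to 0.49 for KI over B6 (4 regions) and from -0.23 to 0.71 for Hells CKO over Hells wt (9 regions, the Rmi2 promoter at -0.12 aside).

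The H3K9ac regions of the window are given for KI over B6 as a description. The region between Clec16a and Socs1 at chr16:10745932-10746996 had 4.90 and 11.7 CPM in KI cells and 4.05 CPM in Spo11/Spo11 cells, against 1.52, 6.93 and 3.23 CPM in B6 cells, with overlap. Its log2 fold change of KI over B6 was 1.11, and 1.77 without B6 replicate 2, the highest B6 library there. The region at chr16:10769925-10771797 had 3.89 and 3.81 CPM in KI cells and 4.82 CPM in Spo11/Spo11 cells, against 4.94, 4.91 and 5.48 CPM in B6 cells (-0.41, and -0.43 without that replicate). Both KI libraries were below every B6 library there.

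Gm26822, a gene of the plus strand upstream of Rmi2, had 8.23 and 8.66 CPM in KI cells and 12.4 CPM in Spo11/Spo11 cells, against 4.16, 7.43 and 6.69 CPM in B6 cells (0.48, and 0.64 without B6 replicate 2). At the Rmi2 promoter the levels were 26.9 and 25 CPM in KI cells and 33.5 CPM in Spo11/Spo11 cells, against 30.8, 26.8 and 29.7 CPM in B6 cells (-0.17, and -0.22 without it). The Rmi2 intron region chr16:10843056-10845186 had 7.45 and 7.51 CPM in KI cells and 7.19 CPM in Spo11/Spo11 cells, against 10.2, 8.69 and 11.3 CPM in B6 cells (-0.43, and -0.52 without it). The KI libraries were above the B6 libraries at Gm26822 and below them in this intron. The next, chr16:10848858-10851385, had 6.38 and 6.42 CPM in KI cells and 7.03 CPM in Spo11/Spo11 cells, against 9.29, 7.30 and 10.8 CPM in B6 cells (-0.52, and -0.65 without it). Of these 6 regions, all but the Rmi2 promoter were past the threshold without B6 replicate 2, a setting in which 55.4% of all regions were.

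For Spo11/Spo11 over B6 the log2 fold changes of these 6 regions ran from -0.49 to 1.03 (adjusted p = 0.924 to 0.991, edgeR). The highest, at Gm26822, was 1.19 without B6 replicate 2. Its side of the threshold also depended on that library, as for many regions of the table.

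H3K4me3 at Socs1 was 103, 100 and 132 CPM in Hells CKO cells and 88.1 CPM in Hells wt (log2 fold change 0.34, adjusted p = 0.563, edgeR), and at Rmi2 36.9, 30.8 and 29.6 CPM in Hells CKO cells and 29.7 CPM in Hells wt (0.13, adjusted p = 0.888, edgeR). A weak site in an Rmi2 intron, chr16:10851387-10851798, overlapped the second DMC1 peak of Hells het testes in the window and gave -1.25 (adjusted p = 0.503, edgeR). Between Clec16a and Socs1, chr16:10745960-10746883 had 1.03, 6.66 and 2.13 CPM in Hells CKO cells and 6.52 CPM in Hells wt (-1.03, adjusted p = 0.602, edgeR), with Hells CKO replicate 2 at the level of the wt library. Gm26822 gave -0.36 and the Rmi2 intron region chr16:10843426-10844730 gave 0.31 (adjusted p = 0.719 and 0.745, edgeR). For Spo11/Spo11 over Spo11/+ the region between Clec16a and Socs1 had 0.703 and 0.162 CPM in Spo11/Spo11 cells and 1.80 CPM in Spo11/+, a log2 fold change of -2.09 (SE 0.970, adjusted p = 1.000, edgeR). Between Prm1 and Rmi2 the F1 region chr16:10813002-10814553 had 17 B6 and 21 CAST ATAC reads in library 1 and 10 and 17 in library 2 (log2 ratio -0.50, adjusted p = 0.567, edgeR). Its H3K9ac reads were 1 from the B6 allele and 29 from the CAST allele, a B6 share of 3.33% (0.0844 to 17.2), in 1 library and so without a test. In the Rmi2 intron the ATAC reads were 17 B6 and 4 CAST in library 1 and 16 and 10 in library 2, and the H3K9ac reads 22 and 9, all toward B6 (ATAC log2 ratio 1.25, adjusted p = 0.182, edgeR).

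Genes that act with the protamines were read at their promoters in the same fits, 1 region a gene. That region was the one with its middle nearest to any annotated start of the gene. In the H3K4me3 contrast of Hells CKO over Hells wt, 1 of the 20 exchange genes with a region passed, Kdm3a, and 1 of the 5 late structural genes, Oaz3. Kdm3a encodes a histone H3 lysine 9 demethylase needed in mouse spermatids for Tnp1 and Prm1 transcription, and Oaz3 an antizyme of spermatids. The Kdm3a region had 18, 20 and 13 reads in Hells CKO cells and 62 in Hells wt, with 228 and 233 in Spo11/Spo11 cells and 212 in Spo11/+, and it fell by 2.72 on the log2 scale (SE 0.408, adjusted p = 0.00124, edgeR). The Oaz3 region had 21, 20 and 20 reads in Hells CKO cells and 80 in Hells wt, with 300 and 370 in Spo11/Spo11 cells and 329 in Spo11/+, and it fell by 2.84 (SE 0.318, adjusted p = 3.85e-04, edgeR). The reads are not scaled to depth, which was 13.3 M in Hells wt, 18.8 to 35.5 M in Hells CKO and 29.3 to 42.0 M in the Spo11 libraries. Both calls rest on 1 Hells wt library, with the spread taken from the groups with replicates. As single Hells CKO libraries were left out, Kdm3a ran from -3.03 to -2.50 and Oaz3 from -2.99 to -2.71, with adjusted p of at most 0.00958 and 0.00528 (edgeR). Both regions, like the Prm1 site, were in state 7 with a DMC1 peak of Hells het testes. Their middles were 80 and 254 bp from a start of the gene itself. The Prm1 site lay near a start of the antisense gene Gm46563 and not of Prm1. All 3 regions lie on the grid of the segmentation, and their p-values do not allow for a choice of regions by state 7. Regions at any other start of Kdm3a or Oaz3 were not read. List medians were 0.33 for the exchange genes, 0.16 for transcription, 0.28 for storage and translation and 0.22 for late structure, against 0.19 over all promoter regions, of which 3.55% passed.

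In the KI over B6 H3K9ac contrast, again as a description, 2 promoters of these lists were past the threshold, of 51 with a region. H1fnt, a linker histone of spermatids, had 145 and 84 reads in KI cells and 43 in Spo11/Spo11 cells, against 56, 37 and 79 in B6 cells, a log2 fold change of 1.4 (1.44 without B6 replicate 2). Tssk2, a kinase of spermatids on the same chromosome as the cluster, had 200 and 173 reads in KI cells and 20 in Spo11/Spo11 cells, against 10, 15 and 14 in B6 cells, a log2 fold change of 4.17 (4.64 without it). Neither was past the threshold without B6 replicate 3, KI replicate 1 or KI replicate 2, and H1fnt was not without B6 replicate 1. The reads at both are not scaled to depth. Depth was 23.5 and 17.1 M in the KI libraries, 13.2 M in Spo11/Spo11 and 30.2, 15.1 and 29.2 M in B6. The Tssk2 region was in state 11, as the Prm2-Prm3 region was, and the H1fnt region in state 2. Of all 25540 promoter regions, 5.09% were past the threshold. No promoter of the 4 lists passed in either ATAC contrast between genotypes (48 tested for KI over B6 and 49 for Hells CKO over Hells wt) or in either Spo11 contrast (51 for H3K9ac and 48 for H3K4me3). Between F1 alleles, Gtf2a1l (a testis TFIIA subunit) and Tarbp2 (which binds protamine messages) were lower on the B6 allele, with log2 ratios of -0.73 (adjusted p = 0.00283, edgeR) and -0.39 (adjusted p = 0.00177, edgeR), where 8.62% of 22234 promoter regions passed.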

How the data were processed

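Per the submitters' processing notes, reads were handled with CASAVA, BWA 0.7.15, Bowtie 0.12.9 and MACS 1.4.2 on mm10; which tool made which file is not given in the sources used here. The authors deposited raw read counts per region for ATAC-seq, H3K9ac and H3K4me3, and estimated counts per allele for the F1, all of them whole numbers and rounded as such before testing. The peak lists and the chromatin segmentation were used for positions only.

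The genes, the lists and the neighbourhood were chosen with earlier results of these data known. Gene positions came from GENCODE M21, promoter sequences from RefSeq (GRCm38.p6). A region was assigned to a gene when it overlapped, by 1 bp or more, its body or the 1000 bp either side of a start. In the deposited tables, 10 columns that match no sample by name were not used, and 56 rows that repeat a region of the Hells ATAC table were dropped. The text names all member regions, the regions within 50 kb of the cluster (some of them by range), the 3 genes most alike in level and every called promoter of the lists.

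Counts were fitted over the whole of each table with edgeR 4.0.16 in R 4.3.3 (filterByExpr, TMM scaling, quasi-likelihood F test, Benjamini-Hochberg threshold 0.05), and DESeq2 1.42.0 was an alternative. F1 alleles were fitted with the library as a factor, over regions with at least 20 allele counts on the autosomes. Leaving out the sex chromosomes there was chosen after the data were seen. CPM divides by a library's summed counts times its TMM factor (in the F1, by the summed counts). The summed counts ran from 28.0 to 34.6 M reads for ATAC of KI and B6 down to 3.13 to 5.0 M per F1 allele, so counting error is largest in the F1. Alternatives were other scaling, no filter, DESeq2, single libraries left out, library number series, and other windows; leaving out libraries for the gene lists and the hotspot class was added after the data were seen. The fits were tested on simulated counts with known changes.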

Additional observations from a re-analysis of the deposited data

How the results depend on the processing

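Of the values under an alternative setting, 477 kept direction and side of the threshold, 29 took the other sign, 20 passed where they had not, 10 no longer passed and 9 moved by more than the spread. Every sign change was of a log2 fold change that did not pass the test, and the cause of none was tested. Outside Hells ATAC and the F1, whose alleles were fitted with the library as a factor, no paired analysis was possible because replicate numbers only name the libraries within a group and no test had 2 library number series that each hold both groups. In Hells ATAC, where replicates 1 and 2 of both genotypes share a series, the series was fitted as a covariate.

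The 1 called member, H3K4me3 at the Prm1 intron site, gave 0 called members by DESeq2, and 0 to 1 as single Hells CKO libraries were left out (log2 -3.08 to -2.46, with 0 without replicate 3). It was -1.96 within 1 library number series. Tnp1 H3K4me3 gave 0.04 with median-of-ratios factors and 0.04 with DESeq2 for Hells CKO, -0.15 to 0.01 with single libraries left out, and -0.06 to 0.11 for Spo11/Spo11. The Prm2-Prm3 H3K9ac value ranged from 2.53 to 3.51. For Spo11/Spo11 over B6, the Prm2-Prm3 region ranged from 0.5 to 1.49, as a description, and the Prm1 intron site from -0.34 to 1.41. The Prm2-Prm3 allele ratio was 1.26 in F1 library 1 and 0.00 in F1 library 2 (pseudocount of 1).

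Whole-table counts of calls depended on single libraries: with 1 left out they ran from 6499 to 18809 for KI ATAC, 0 to 627 for Hells ATAC (1211 with the number series as covariate, against 363), 0 to 50946 for KI H3K9ac, 0 to 32841 for Spo11/Spo11 H3K9ac (16 by DESeq2), 6897 to 12738 for Hells H3K4me3 and 0 to 2 for Spo11/Spo11 H3K4me3 (5 by DESeq2). KI H3K9ac gave 0 calls without either KI library, 50946 without B6 replicate 2 and 1987 without B6 replicate 3. Hells H3K4me3 gave 13011 calls with the Hells wt and Spo11/+ libraries together, against 9245.

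In Hells ATAC the Socs1-Tnp2 region gave 0.01 and the Rmi2 promoter 0.08 with the covariate, and with single libraries left out they ran from -0.13 to 0.01 and -0.41 to 0.22. The region upstream of Prm1 ran from -0.00 to 0.97. Regions in Rmi2 introns ran from -0.30 to 0.20, -0.18 to 0.10 (0.02 by library size, 0.06 with the covariate) and -0.48 to 0.12, and a region between Clec16a and Socs1 from -0.05 to 0.32. In KI ATAC a region between Clec16a and Socs1 ran from -0.32 to 0.46, and in Spo11/Spo11 H3K9ac one ran from -0.31 to 0.77. In H3K4me3, Gm26822 gave 0.52 with the wt and Spo11/+ libraries together, and the Rmi2 promoter -0.02 by library size for Hells CKO and -0.18 to 0.02 for Spo11/Spo11.

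Within 5 kb in place of overlap, 1 Hells CKO peak, at the Socs1 promoter, lay near 3 genes (Tnp2, Prm3 and Prm2). Likewise 1 Hells het peak, in the Prm1 intron, lay at or near 2 (Prm1 and Prm2). The share of all coding genes within 5 kb of a peak was not computed. With 500 bp either side, state 2 covered 79.1% of the Tnp1 promoter. Member regions numbered 9 and 13 with promoters of 500 and 2000 bp. Depth limits the Prm1 intron site (4 to 17 reads in the Hells groups) and the F1 most.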
